A study of Drosophila melanogaster with 3 samples.

Results

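Binding of Traffic jam was examined at 8 genes of the septate junction, the belt-like seal between epithelial cells of Drosophila melanogaster. The genes were taken by name as a list: cora, Nrx-IV, vari, sinu, pck, kune, Atpalpha and nrv2. All 8 were found by symbol among 13945 protein-coding genes. For each gene, the summits of the reproducible (IDR, irreproducible discovery rate) peak list from 10 kb before its start to 10 kb after its end were collected, with their signal in the 3 replicates. This gave 36 of the 10688 summits of the list, in windows that did not overlap one another. A summit is the position of highest enrichment in a called peak, and 1 peak region can hold several.

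Traffic jam (tj) belongs to the large Maf proteins, transcription factors that bind DNA through a basic region and a leucine zipper. It is needed for the development of ovary and testis and is made in their somatic cells. Chromatin immunoprecipitation with sequencing was done on adult females, as whole animals whose age the labels give as unknown. They carried a transgene encoding tj with eGFP at its C terminus, and the tagged protein was pulled down through its GFP. The 3 biological replicates form 1 group that shares this genotype, and no second genotype or untreated group was compared. Chromatin had been sheared by sonication to 200 to 800 bp. Because whole animals were used, the tissue that a peak came from cannot be told apart. How many flies made up a replicate, and which promoter drives the transgene, was not stated in the labels.

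The pleated septate junction is built from a core complex that is assembled as a unit. Its parts include transmembrane adhesion proteins, cytoplasmic scaffolds, claudin-family membrane proteins and the sodium pump, which acts in the junction apart from its ion transport. The follicle epithelium that surrounds the germline in the ovary forms such junctions as it matures. Of the 8 genes, cora encodes Coracle, a band 4.1 family scaffold, vari encodes Varicose, a scaffold of the membrane-associated guanylate kinase family, and Nrx-IV encodes the adhesion receptor Neurexin IV. The claudin-family genes are sinu (Sinuous), pck (Megatrachea) and kune (Kune-kune). Atpalpha encodes the catalytic subunit of the sodium pump and nrv2 a beta subunit of it.

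The printed sequences span 100 bp either side of a summit on the plus strand of dm6, and were chosen because they hold the strongest summit of vari, the motif matches inside Atpalpha, and the strongest summit near nrv2. Capitals mark exact matches, on either strand, to TGCTGAC (the core of a Maf site), TGANTCA (the AP-1 type), AACCGGTT (Grainyhead), GAGAGAG (the Trithorax-like factor) or TATCGATA (DREF). Where a sequence has no capitals, none of these letters occurred in that window. None of the windows printed overlaps an annotated untranslated region.
vari intron, chr2L:20793088-20793288: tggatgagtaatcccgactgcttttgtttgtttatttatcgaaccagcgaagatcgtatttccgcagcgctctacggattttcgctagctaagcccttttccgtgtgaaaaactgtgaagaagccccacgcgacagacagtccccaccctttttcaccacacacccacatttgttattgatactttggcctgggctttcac
Atpalpha intron, chr3R:20952523-20952723, Maf core: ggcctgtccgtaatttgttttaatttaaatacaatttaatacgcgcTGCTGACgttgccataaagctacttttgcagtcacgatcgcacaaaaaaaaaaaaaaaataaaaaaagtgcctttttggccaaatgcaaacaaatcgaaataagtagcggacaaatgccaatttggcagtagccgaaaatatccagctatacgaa
Atpalpha intron, chr3R:20959970-20960170, Grainyhead match: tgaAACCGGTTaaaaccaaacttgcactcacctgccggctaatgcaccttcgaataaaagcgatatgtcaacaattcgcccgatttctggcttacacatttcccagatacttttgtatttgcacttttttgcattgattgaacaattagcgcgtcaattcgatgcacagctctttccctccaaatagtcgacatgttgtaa
Atpalpha intron, chr3R:20961201-20961401, AP-1 type: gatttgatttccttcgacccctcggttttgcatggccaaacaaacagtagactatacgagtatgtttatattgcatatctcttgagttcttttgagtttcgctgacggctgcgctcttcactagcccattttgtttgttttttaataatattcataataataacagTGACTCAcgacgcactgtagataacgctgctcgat
Atpalpha intron, chr3R:20961420-20961620, AP-1 type: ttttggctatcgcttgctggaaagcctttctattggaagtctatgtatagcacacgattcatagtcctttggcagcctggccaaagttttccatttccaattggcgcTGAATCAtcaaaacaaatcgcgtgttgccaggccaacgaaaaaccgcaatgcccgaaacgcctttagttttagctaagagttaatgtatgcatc
between nrv2 and nrv1, chr2L:6787184-6787384: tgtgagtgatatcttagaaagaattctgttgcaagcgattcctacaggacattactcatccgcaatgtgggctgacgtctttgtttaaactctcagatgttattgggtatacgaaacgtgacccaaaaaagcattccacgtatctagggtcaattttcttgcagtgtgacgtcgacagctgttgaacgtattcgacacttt

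Signal is the peak caller's enrichment value, which has no stated unit. It is given below as deposited and as relative signal, the value divided by the replicate's median over the 10265 IDR summits with a match within 200 bp in all 3 replicate lists. Those medians were 113.6 in replicate 1, 242.1 in replicate 2 and 160.6 in replicate 3. Each replicate list held 30000 peaks, and read depth is unknown. The strongest replicate summit within 200 bp was used, so 12 of the 36 summits shared a replicate value with a neighbour. With 3 values against 3, a two-sided exact permutation test cannot give a p below 0.1, so differences between summits are described by their replicate values.

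The 8 genes divided into 4 with summits of their own and 4 without. Atpalpha, vari, cora and pck each had at least 1 summit inside the gene, and the same 4 had a summit within 1000 bp of an annotated start. Nrx-IV, sinu, kune and nrv2 had neither. A summit inside the gene was thus present at 4 of 8, against 21.5% of all protein-coding genes, and a promoter summit at 4 of 8, against 36.4%. A summit whose nearest annotated start was the gene's own was likewise present at 4 of 8, against 30.2%. The listed genes had a median length of 8737 bp and all coding genes 2166 bp, and longer genes offer more room for a summit, an effect on these counts that was not tested.

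With 10 kb added on either side, all 8 genes had a summit, against 73.1% of all coding genes and 78.1% of those at least as long as kune, the shortest of the 8 at 1060 bp. The number per gene ran from 1 at sinu to 10 at Atpalpha, with a median of 3 against 2 over all coding genes. At least 10 summits occurred at 4.16% of coding genes, and at least 9, the number at vari, occurred at 5.96%. These shares take no account of gene length, which was 27526 bp at Atpalpha. The 36 summits lay in 28 regions with different listed bounds, with 7 regions each at Atpalpha and vari. Some of these regions, at vari, kune and Atpalpha, overlapped a neighbouring region and were counted apart. The remaining genes lay in the body of the distribution, with 5 summits near nrv2, 3 each near cora, Nrx-IV and pck, and 2 near kune. Of the 36 summits, 16 had a start of a listed gene as the nearest start, 10 of them at Atpalpha. The other 20 had that of another gene, and 12 of those 20 lay within 500 bp of that other start. The same shares over the windows of all coding genes were not computed.

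**Figure D1:**
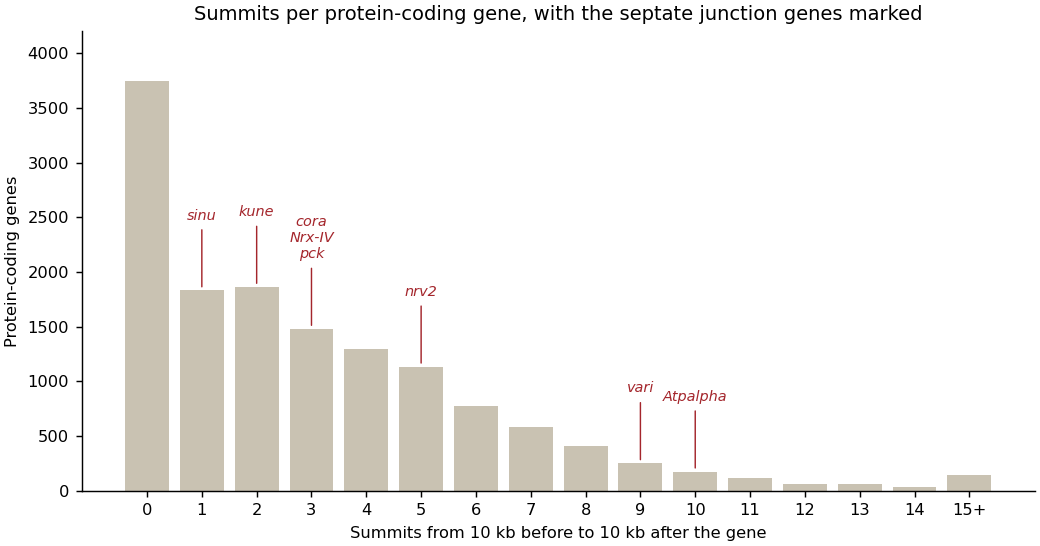
Number of protein-coding genes (vertical axis) with a given number of IDR summits between 10 kb before and 10 kb after the gene (horizontal axis, with 15 and more in the last bar). The septate junction genes are marked: sinu has 1 summit, vari 9 and Atpalpha 10.

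The 36 summits were of ordinary strength for this experiment. Their mean relative signal ran from 0.41 to 4.38 with a median of 1.05, against 1.01 over all IDR summits. They included 19 summits (52.8%) within 500 bp of some gene's start, against 48.3% of all IDR summits. In the annotation, 17 lay in an intron, 9 in a 5' untranslated region, 10 between genes and none in coding sequence or a 3' untranslated region. The shares of these classes over all IDR summits were not computed, so the counts are not read as particular to these genes. All 3 replicate lists held a match for 33 of the 36, against 96.0% of all IDR summits, and the other 3 had a match in 2 lists. Among the 10688 strongest peaks of each replicate, 26 of the 36 (72.2%) were found in all 3, against 76.5% of all IDR summits.

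**Figure D2:**
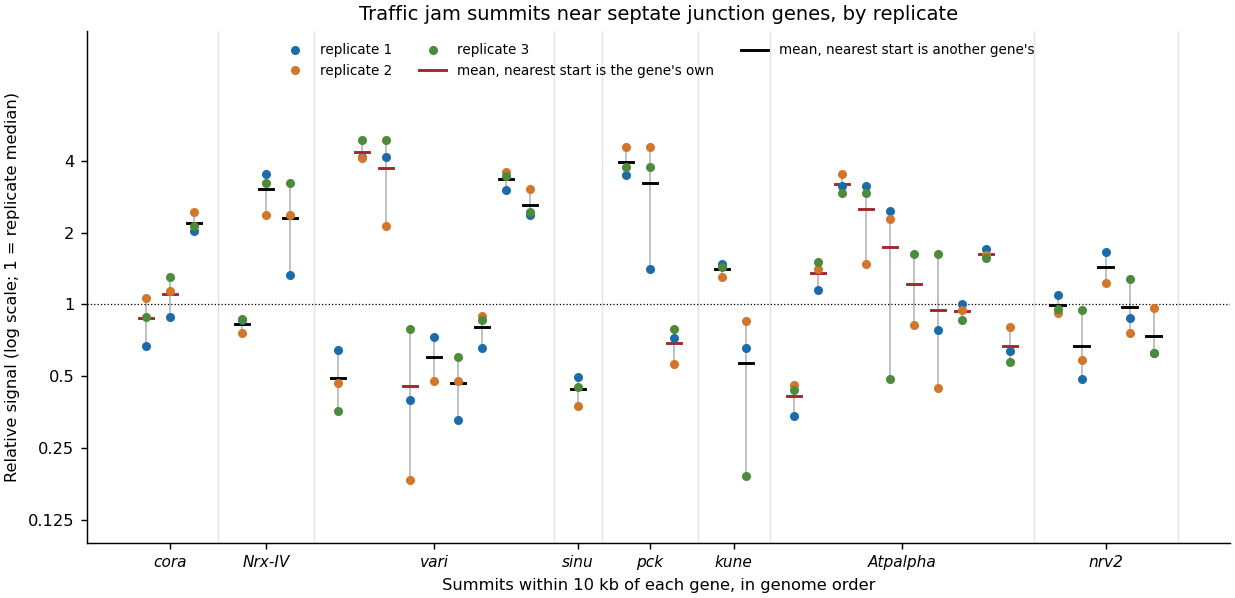
Relative signal (vertical axis, log scale, dotted line at 1) of the 36 summits within 10 kb of the 8 genes, with 1 point per replicate and a bar for the mean. Grey lines join the lowest and highest replicate. The highest means are at vari (4.38) and upstream of pck (3.94), and the lowest of the 36 is at the first start of Atpalpha (0.41).

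Among the scaffolds and the receptor, vari carried the strongest summit of all 36. It lay in an intron of vari (FBgn0250785, 2L, 20788662 to 20797042, minus strand), 958 bp downstream of the second of its 2 annotated starts, in the region 20792974 to 20793733. Signal there was 470.0 in replicate 1, 991.6 in replicate 2 and 788.2 in replicate 3, and it ranked 503 in the IDR list. The relative signals of 4.14, 4.10 and 4.91 were close to each other, at 4.38 ± 0.46 (SD, n = 3). Its bases are the first of the printed sequences and hold none of the motifs searched. A second summit of the same region, 751 bp from that start, had 3.72 ± 1.43 (SD, n = 3) because replicates 1 and 3 shared their value with the stronger summit. With the nearest replicate summit in place of the strongest, it was 1.56 ± 0.69.

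The starts of vari themselves had only weak summits. At 27 bp from the second start the relative signal was 0.40, 0.18 and 0.79 in replicates 1 to 3, and this summit was among the strongest 10688 of 1 replicate only. Upstream of the outer start, 2 summits at 470 and 671 bp had 0.60 ± 0.18 (n = 2) and 0.47 ± 0.14 (n = 3), and both lay nearer to the start of CG9328, which runs in the other direction. Their regions overlapped, and they shared their value in replicate 2. Farther upstream, an intronic region of CG9328 (2L, 20805654 to 20806477) held 2 strong summits, with relative signals of 3.02, 3.61 and 3.46 at the first and 2.38, 3.04 and 2.45 at the second. These lay 8974 and 9187 bp from the outer vari start. The remaining summits of the window, inside CG9328 and before Pomp, a proteasome maturation gene, had means of 0.80 and 0.49.

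The scaffold gene cora (FBgn0010434, 2R, 19229063 to 19243751, plus strand) had 2 summits of its own near the median of the list. The first, 244 bp inside the gene, had a relative signal of 0.67, 1.07 and 0.88, and the second, 5614 bp from the start in an intron, 0.88, 1.13 and 1.30. The 2 sets of replicate values overlapped. The strongest summit of the window was not at cora but 22 bp from the start of wbl, 5988 bp beyond the end of cora. The wbl product is an endoplasmic reticulum protein needed in follicle cells to set the dorsoventral axis of the embryo. Signal there was 229.9, 589.9 and 341.8 in replicates 1 to 3, a relative signal of 2.20 ± 0.22 (SD, n = 3), and its replicate values lay above all those of the cora summits.

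Nrx-IV (FBgn0013997, 3L, 12146519 to 12156990, plus strand) had no IDR summit between its ends or at its start. The 3 summits of its window lay upstream, 7695 to 9683 bp from the start, at the promoters of other genes. The strongest, 38 bp from ND-SGDH, a gene of mitochondrial complex I, had signals of 400.1, 574.8 and 518.1 and a relative signal of 3.04 ± 0.60 (SD, n = 3). The summit farthest upstream, 130 bp from CG5645, had 0.83 ± 0.06 and held the DREF letters TATCGATA. In the pooled list of 30000 peaks, which keeps background peaks, the strongest peak within 1000 bp of the Nrx-IV start had a signal of 156.0, against 215.6 for the weakest summit of the IDR list. Replicate 1 had no peak there, and replicates 2 and 3 had relative signals of 0.30 and 0.26.

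**Figure D3:**
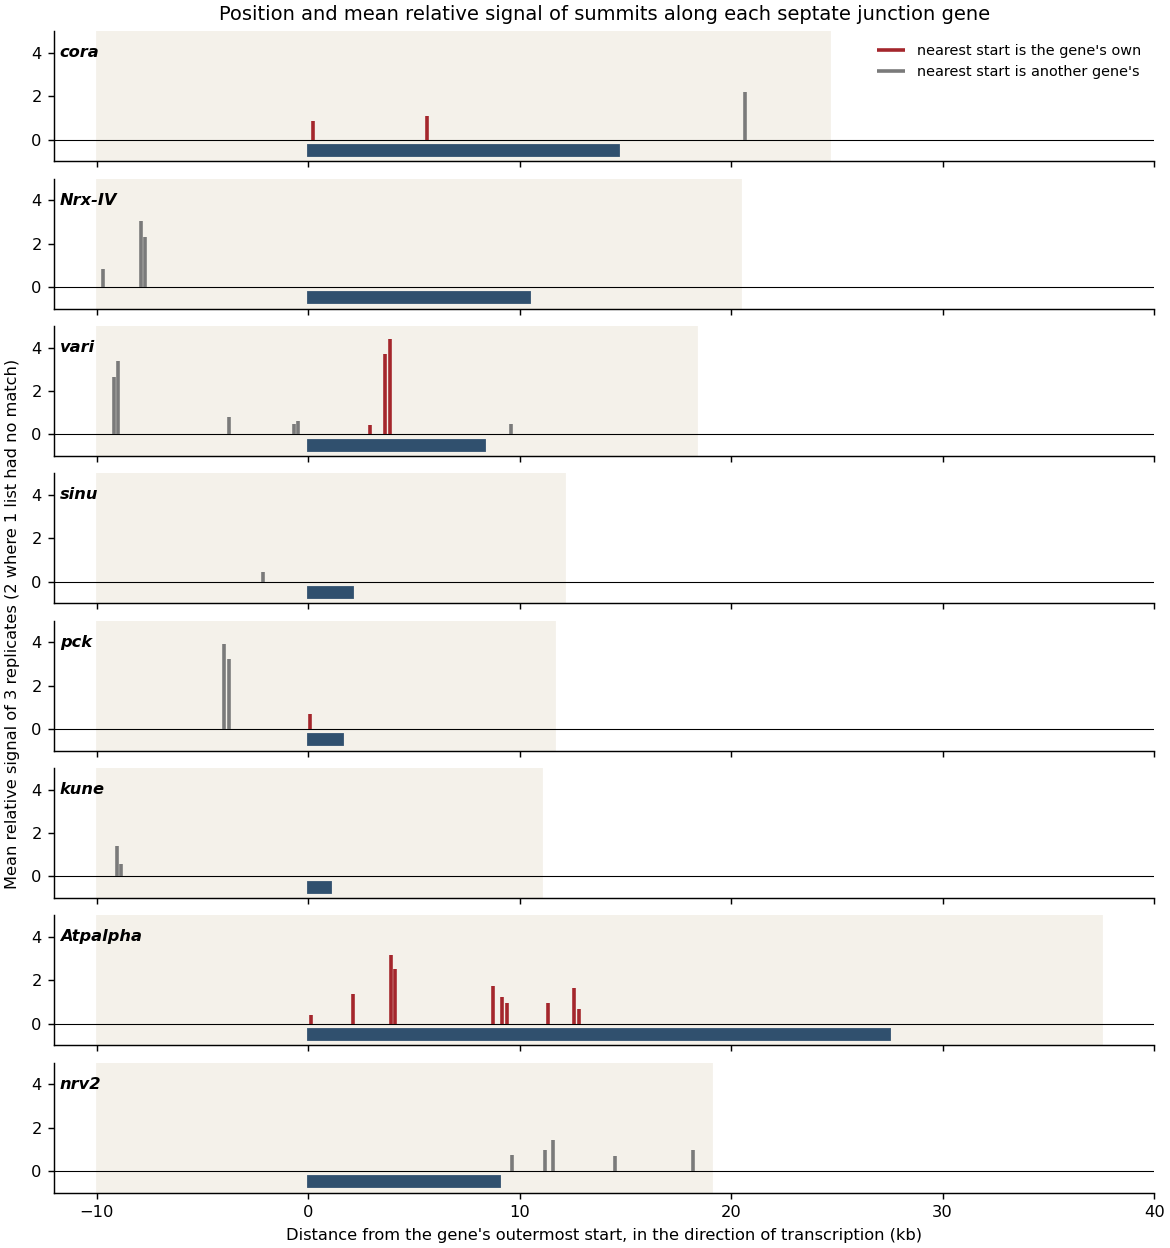
Mean relative signal (vertical axis) of each summit against its distance from the outermost start of the gene in the direction of transcription (horizontal axis, kb). The blue bar is the gene, the shaded area the window searched, red lines are summits whose nearest annotated start is the gene's own, and grey lines are the others. Red lines occur at cora, vari, pck and Atpalpha and at none of the other 4 genes.

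The 3 claudin-family genes, all short, had 6 summits in their windows, of which 1 was inside a claudin gene. That summit lay at the start of pck (FBgn0013720, X, 1470666 to 1472325, plus strand), 14 bp from the second of its 3 annotated starts. Its signal was 81.9, 136.0 and 126.7 in replicates 1 to 3, and its relative signals of 0.72, 0.56 and 0.79 were all below 1. The strong binding of the window was upstream, in the region 1466376 to 1467132 at the promoter of CG14777. The summit 42 bp from that start, 3959 bp from pck, had signals of 397.0, 1107 and 604.0 and a relative signal of 3.94 ± 0.56 (SD, n = 3). A further summit of that region had 3.25 ± 1.65, or 1.64 ± 0.39 by the nearest replicate summit.

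Neither sinu nor kune had a called peak of its own in any list. For sinu (FBgn0010894, 3L, 5559470 to 5561598, minus strand) and kune (FBgn0033032, 2R, 5671741 to 5672800, plus strand), the 3 replicate lists and the pooled list, each of 30000 peaks, held no peak inside the gene or within 1000 bp of its start. A peak of at least 1 of these lists was present there at the other 6 genes, and at 69.8% of all coding genes. The single summit near sinu, 2140 bp upstream and 36 bp from the start of the protease gene Sras, was weak, at 0.49, 0.37 and 0.45. The 2 summits near kune lay 8835 and 9056 bp upstream at Not3, a gene of the CCR4-NOT complex. The farther had 1.48, 1.30 and 1.43, and the nearer 0.65, 0.85 and 0.19, so that every replicate was higher at the farther.

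Atpalpha (FBgn0002921, 3R, 20948714 to 20976239, plus strand) had the most summits, and all 10 lay inside the gene. They fell within 12656 bp, from 150 bp to 12806 bp downstream of the outermost start, in a gene of 27526 bp. None lay beyond that point or in the 10 kb on either side. The nearest annotated start of all 10 was one of the 3 starts of Atpalpha. Relaxed peaks of the pooled list numbered 29 in this window.

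Within Atpalpha, the strongest site was intronic and the first promoter was weak. The summit in the region 20952373 to 20952957, 3843 bp from the nearest start, had signals of 355.0, 849.5 and 470.1 and relative signals of 3.12, 3.51 and 2.93, or 3.19 ± 0.30 (SD, n = 3). The summit 84 bp from a start at the 5' end of the gene had signals of 38.5, 111.0 and 70.0 and relative signals of 0.34, 0.46 and 0.44. Every replicate was higher in the intron, and the values did not overlap. In the pooled signal of the IDR list the intronic summit was 7.43 times the promoter summit, 1647 against 221.5. A second summit of the intronic region had 2.51 ± 0.90, with values shared in replicates 1 and 3, and 1.83 ± 1.23 by the nearest replicate summit.

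The alternative start of Atpalpha inside the gene had 3 summits in 1 region (20957422 to 20958322) whose order differed between replicates. The summit 302 bp upstream of that start had relative signals of 2.46 and 2.29 in replicates 1 and 2 but 0.49 in replicate 3. At the 2 summits 157 and 402 bp downstream of it, replicate 3 had 1.62, a value shared by both, while replicate 2 had 0.82 and 0.45. Replicate 1 had no match at the nearer of these and 0.78 at the farther. The mean of the upstream summit was 1.75 ± 1.09 (SD, n = 3). The other intronic summits varied less, with 1.36 ± 0.19 at 2069 bp, 0.94 ± 0.07 at 2336 bp, 1.63 ± 0.07 at 3567 bp and 0.67 ± 0.12 at 3786 bp from the nearest start.

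The beta subunit gene nrv2 (FBgn0015777, 2L, 6789770 to 6798862, minus strand) contrasted with Atpalpha in having no summit in the gene. All 5 summits of its window lay beyond its 3' end, toward and inside nrv1, the neighbouring beta subunit gene that runs in the same direction. The strongest, 423 bp from a start of nrv1 and 2486 bp beyond the end of nrv2, had relative signals of 1.65 in replicate 1 and 1.23 in replicate 2 and no match within 200 bp in replicate 3. The other 4 had means of 0.67 to 0.99. At the starts of nrv2 itself, the pooled list held a peak 72 bp from a start with a signal of 204.2, below the weakest IDR summit at 215.6. The strongest peaks within 1000 bp of its 4 starts had relative signals of 0.28, 0.65 and 0.30 in replicates 1 to 3.

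Ordered by the strongest summit in the window, the genes ran vari (4.38), pck (3.94), Atpalpha (3.19), Nrx-IV (3.04), cora (2.20), nrv2 (1.44), kune (1.41) and sinu (0.44), as mean relative signal. Neighbours in this order had overlapping replicate values except for cora above nrv2 and kune above sinu. In 2 of the 8 genes, vari and Atpalpha, the strongest summit was nearest to the gene's own start. The order therefore describes the windows and, for the other 6, mainly the promoters of neighbours. The share of all coding genes whose strongest summit is nearest to their own start was not computed.

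At least 1 of the 5 motifs occurred within 100 bp of 6 of the 36 summits (16.7%), against 20.6% of all IDR summits. TGCTGAC occurred within 100 bp of 1 of the 36 summits (2.78%), the strongest of Atpalpha, where it begins at -54 bp from the summit on the plus strand, against 6.84% of all IDR summits and 2.51% of windows 1000 bp away. TGANTCA occurred at 3 of 36, a pair of neighbouring Atpalpha summits and the weak summit at the second vari start, against 5.64% of all IDR summits and 4.89% of flanking windows. AACCGGTT occurred at 1, near the edge of the window in Atpalpha, against 0.225% of all IDR summits and 0.356% of flanking windows. TATCGATA occurred at 1, near CG5645, against 2.49% and 0.674%. GAGAGAG occurred at none, against 7.01% and 3.73%. The first pair of motifs can share letters, since the end of the Maf core can begin an AP-1 type site. A match describes the sequence and does not show that a factor was bound.

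Other genes of septate junctions, chosen by function but with earlier results of these data known, were read in the same way. They are described beside the background and are not an independent check. Of 25 such genes, 22 had a summit within 10 kb, 15 had a summit inside the gene, 17 had a promoter summit and 16 had a summit nearest to their own start. A summit within 10 kb was thus present at 88.0%, against 73.1% of all coding genes, and a promoter summit at 68.0%, against 36.4%. A summit nearest to the own start was present at 64.0%, against 30.2%, and the 15 of 25 with a summit inside the gene stand beside 21.5%. Lengths of the 25 ran from 703 bp at bou to 73340 bp at Fas3, against a median of 2166 bp over all coding genes. Annotated starts per gene ran from 1 to 7, the most at dlg1. An effect of length or number of starts on these counts was not tested. The strongest promoter summit was at dlg1, a polarity scaffold gene, with relative signals of 5.53, 6.27 and 6.90. It was followed by bou, which encodes a Ly6 family protein (1.79 ± 0.39, SD, n = 3), Gli, which encodes Gliotactin of the tricellular junction (relative signals of 1.38, 1.52 and 1.62), and nrv1 (1.44 ± 0.30, n = 2). Next came scrib, a polarity scaffold gene (1.06 ± 0.02), M6, a tricellular junction gene whose summit was nearest to Glg1 (1.00 ± 0.26), cold, another Ly6 family gene (0.95 ± 0.18) and Cont, the Contactin gene (0.91 ± 0.34). The other 9 promoter summits had means of 0.47 to 0.75, and some of them, like that of M6, were nearest to another gene's start. The nrv1 promoter summit was also the strongest in the window of nrv2, so it is counted in both lists. No summit within 10 kb was found at crok, crim and hoka.

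**Figure D4:**
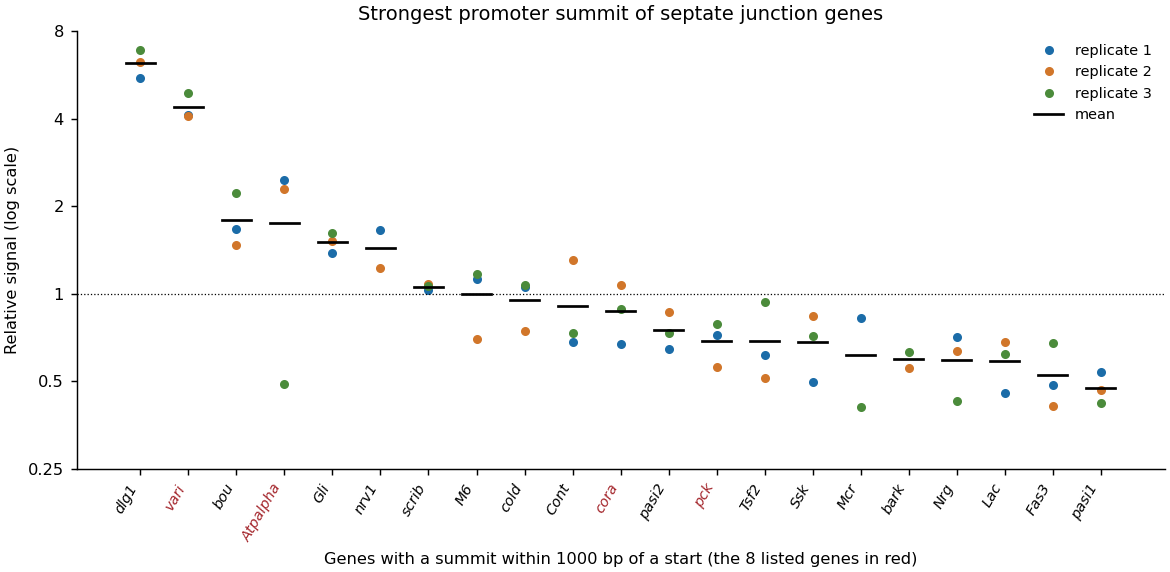
Relative signal (vertical axis, log scale, dotted line at 1) of the strongest summit within 1000 bp of a start, for the septate junction genes that had such a summit, with 1 point per replicate and a bar for the mean. Names of the listed genes are red. The means of dlg1 and vari (4.38) stand above 4 and those of the other genes below 2. The vari summit shown is intronic, 958 bp from the second start of vari. The summit 27 bp from that start has a mean of 0.45.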

How the data were processed

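The deposited values are dm6 peak lists, which cover each replicate, the replicates pooled and the reproducible (IDR) set. Per the descriptions deposited with the files, the replicate and pooled lists come from alignments and a control alignment and include background peaks as input for IDR, and the IDR list was derived from them. The aligner, peak caller and cutoff applied in IDR were not stated in the labels or file descriptions. The deposited signal is treated as a score with no unit. The deposited −log10 q-value was not used, and dm3 lists were not used. Replicate numbers came from the labels of the sample recorded for each list.

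Genes and starts came from Ensembl release 115 (BDGP 6.54), without transposable elements, and sequence from the NCBI Release 6 assembly, on 6 arms. Of 25 other septate junction genes, 23 matched by symbol and 2 by an older symbol. Named were the 8 genes, the gene with the start nearest to each summit, and for the other genes the 8 with the strongest promoter summits and those with no summit. The values of 1 summit upstream of Nrx-IV are not reported here. Members and lists were chosen with earlier results of these data known, so counts are set beside all coding genes without a test. Alternatives are given below, and the nearest replicate summit, 1 summit per region for counts of genes, other windows for the combined count of the 5 motifs, and alternatives for the other genes were added after seeing the data. Counting was tested on simulated summits. Python 3.11.15, NumPy 2.4.6, pandas 2.3.3 and Matplotlib 3.10.9 were used.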

Additional observations from a re-analysis of the deposited data

How the results depend on the processing

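The count of 4 genes with a promoter summit was 3 among the 5344 strongest peaks, against 21.1% of coding genes, and 4 in the 7 other settings tried, against 29.9% to 41.9%, the highest with the promoter window at its widest. The count of 8 genes with a summit within 10 kb was 7 or 8, against 68.7% to 69.9%, when a replicate was left out. It fell to 4, against 21.5% of coding genes, when the gene body alone was searched. With a 5 kb window it was 6, against 61.8%, and with a 20 kb window 8, against 83.6%. It was 7 among the 5344 strongest peaks, against 58.8%, and 8 with 1 summit per region, against 73.1%. Peaks matched among the strongest of all 3 replicates gave 7, against 67.5%. The 36 summits became 28 to 30 when a replicate was left out, 21 among the 5344 strongest peaks and 16 in the gene body alone. They became 28 with 1 summit per region, where overlapping regions with different bounds were counted apart, 26 with a 5 kb window and 47 with a 20 kb window. With a replicate left out, peaks were kept if matched in both others, and the IDR list itself still came from all 3. The median over genes of the strongest mean relative signal, 2.62, was 2.54 to 2.59 when a replicate was left out, 2.31 with matching within 500 bp and 9.16 when divided by whole-list medians, a change of scale by construction. The Maf core count of 1 was 0 within 50 bp and 22 with 1 mismatch allowed, when 49.9% of all IDR summits matched. Summits with any of the 5 motifs numbered 6, against 2 within 50 bp (11.9% of all IDR summits) and 13 within 200 bp (34.5%). The count of 11 summits above a relative signal of 2 (30.6%, against 21.6% of all IDR summits) was 7 (19.4%, against 21.1%) by the nearest replicate summit. No paired analysis was possible because the samples form 1 group. Depth is unknown, so an absent peak limits only what was called.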
